A study of Mus musculus with 8 samples.

Results

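The scar left by a myocardial infarction (MI) was described gene by gene by setting the infarct zone of WT mice over the WT left ventricle. These are 2 of the 8 RNA-seq libraries of the series, told apart by their labels, with 1 library a side. The 8 libraries cover male WT mice and male TKO mice, which lack *Tigar* in the whole body, each as a left ventricle, an infarct zone, a border zone and a remote zone. The left anterior descending coronary artery was tied permanently at 16 weeks of age, the zones were taken 4 weeks later, and RNA of 3 mice was pooled for each infarct zone library. How many mice entered the other libraries, and whether the left ventricle reference came from sham-operated mice, is not given in the sources used here. Of the 16994 genes in the table, 12999 reached a mean CPM (read counts scaled to a common library size) of 1 or more over the 8 libraries and were compared.

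After an infarct, dead cardiomyocytes are cleared by phagocytes, and resident fibroblasts become activated, lay down collagen and later settle into a quieter, matrix-maintaining state known in mice as the matrifibrocyte. A mature scar is a dense, cross-linked sheet of fibrillar collagen with proteoglycans and matricellular proteins, and it also holds vessels, immune cells and some surviving muscle. Adult cardiomyocytes burn mainly fatty acids and are packed with mitochondria, so transcripts of the contractile apparatus and of oxidative metabolism mark the muscle that remains.

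Total counts were 31571170 in the WT left ventricle and 27429240 in the WT infarct zone, and lay between 27429240 and 33799249 over the series. All levels are CPM scaled by trimmed mean of M values (TMM) factors over the 8 libraries. The factor of the WT infarct zone was 1.54 and that of the WT left ventricle 0.868. Scaling by total counts alone would multiply every ratio of the WT infarct zone to the WT left ventricle by 1.78. This is the largest shift in those ratios that any scaling tried here makes. The TMM factors of the TKO infarct zone and left ventricle were 1.26 and 0.866, so TKO ratios would shift by another factor. With this TMM scaling the median gene had a ratio of 1.01, and the 5th and 95th percentiles were 0.310 and 4.99. No group has a replicate, so no p-value is given and a difference cannot be set against the spread between mice. Each ratio is the infarct zone over the left ventricle, with its exact 95% interval in parentheses. The interval covers counting error only and not the spread between mice. PCR reads that carry no molecular identifier need not be separate molecules, so even the counting error can be larger than the interval shows. A gene is called higher or lower when the ratio is at least 2-fold after a prior count of 2 is added.

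*Tigar*, the disrupted gene, had 1965 counts in the left ventricle, 1997 in the remote, 2215 in the border and 1066 in the infarct zone of WT mice, and between 51 and 87 counts in the 4 TKO libraries, in accord with the labels. Its ratio was 0.351 (0.326 to 0.379).

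Genes of other tissues moved with the comparison and are given before the results. *Sftpc*, the surfactant protein of lung alveolar type 2 cells, had 31 counts in the left ventricle, 556 in the remote, 129 in the border and 4871 in the infarct zone, and 10576 counts in the TKO infarct zone. All 11 tested members of a list of 12 lung epithelium genes, chosen after the values were seen, were higher in the infarct zone. Their summed level was 4.27 CPM in the left ventricle, 43.1 in the remote, 10.4 in the border and 217 in the infarct zone, and 516 CPM in the TKO infarct zone. Lung transcripts were present in both infarct zone libraries.

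Fast skeletal muscle transcripts were present in the WT infarct zone as well. *Myh4*, a fast myosin heavy chain, had 3 counts in the left ventricle, 3 in the remote, 193 in the border and 1486 in the infarct zone, and 1 count in the TKO infarct zone. The 10 genes of a fast skeletal muscle list, also chosen after the values were seen, summed to 5.73 CPM in the left ventricle, 221 in the infarct zone, 44.2 at the border and 4.11 in the TKO infarct zone. The WT infarct zone stood above the other libraries, with the WT border zone next.

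The WT left ventricle for its part held more fat cell transcripts than the other libraries. *Adipoq*, the adipocyte hormone adiponectin, had 370 counts in the left ventricle, 28 in the remote, 79 in the border and 109 in the infarct zone, against 6 and 56 counts in the TKO left ventricle and TKO infarct zone. All 6 tested adipocyte genes were lower in the WT infarct zone (median ratio 0.242), but over the TKO left ventricle the median of the same genes in the WT infarct zone was 9.97. The direction of the adipocyte genes turned with the reference library. The part of these other tissues in the results below was not tested.

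**Figure D1:**
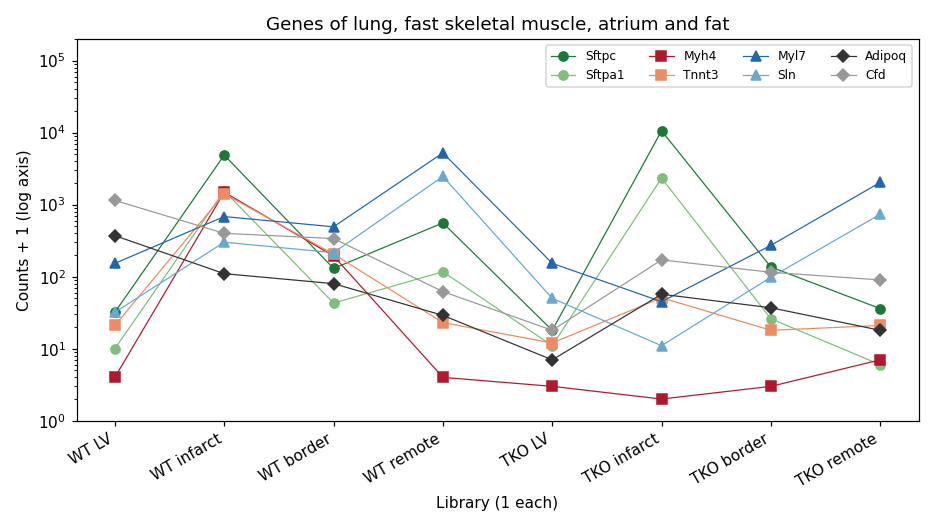
Counts + 1 (log axis) in each of the 8 libraries for 2 genes each of lung (*Sftpc*, *Sftpa1*), fast skeletal muscle (*Myh4*, *Tnnt3*), atrium (*Myl7*, *Sln*) and fat (*Adipoq*, *Cfd*), with 1 point per library. Lung genes peak in both infarct zones, muscle genes in the WT infarct and border zones, atrial genes in both remote zones and fat genes in the WT left ventricle.

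Of the 12999 genes, 2446 (18.8%) had a level at least 2-fold higher in the infarct zone and 1927 (14.8%) one at least 2-fold lower. At 4-fold, 932 (7.17%) were higher and 328 (2.52%) lower. These percentages are the background against which the lists are read. The share of the library taken by the 13 genes of mitochondrial DNA was 37.63% (37.61 to 37.65) in the left ventricle and 20.70% (20.69 to 20.72) in the infarct zone. The 24 sarcomere genes took 5.85% (5.84 to 5.86) and 2.96% (2.96 to 2.97), and the collagens 0.113% (0.112 to 0.114) and 1.34% (1.33 to 1.34). Because the tissue was measured in bulk, fewer cells of a type and less RNA per cell cannot be told apart.

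**Figure D2:**
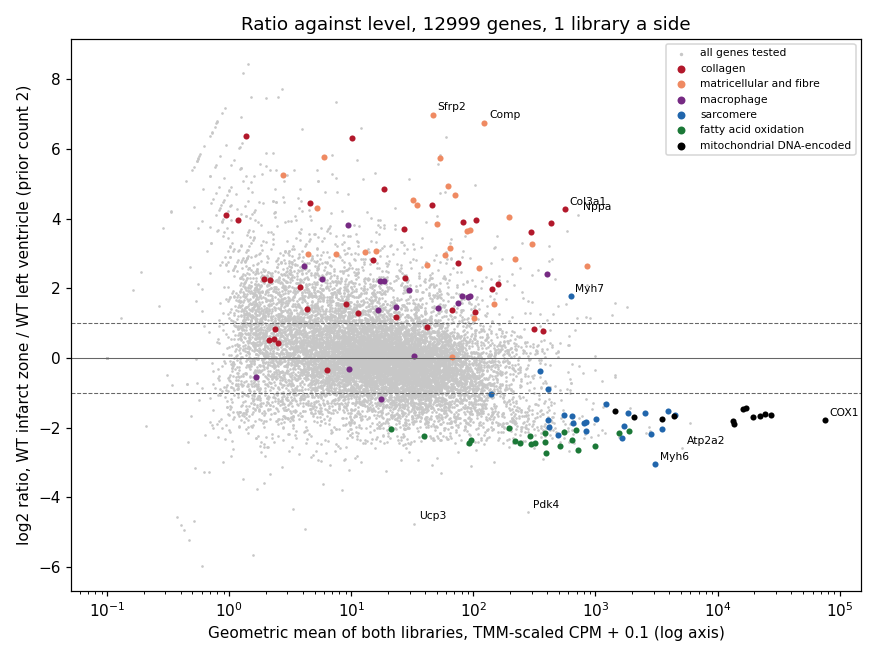
Ratio of the WT infarct zone to the WT left ventricle (log2, prior count 2) against the geometric mean level of both libraries (TMM-scaled CPM + 0.1, log axis), 1 point per gene for 12999 genes; coloured points are members of 6 gene lists and dashed lines mark 2-fold. Collagen and matricellular genes lie mostly above the upper line, with *Sfrp2* and *Comp* highest among those labelled, while sarcomere, fatty acid oxidation and mitochondrial genes lie below the lower line except *Myh7* and a few others.

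Collagen genes were higher as a group. Of 43 collagen genes in the table, 35 were tested, 27 were 2-fold or more higher, 8 lay between and none was at least 2-fold lower, with a median ratio of 4.69 against 1.01 for all genes. *Col3a1*, a fibrillar collagen of young scar, had 3528 counts in the left ventricle, 9506 in the remote, 25374 in the border and 105069 in the infarct zone. Its ratio was 19.3-fold (18.7 to 20.0). *Col1a2* and *Col1a1*, the 2 chains of type I collagen, were 14.6-fold (14.1 to 15.2) and 12.2-fold (11.7 to 12.7) higher. The zones ran in 1 order for each of these genes, from left ventricle through remote and border to infarct zone.

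Other collagens were spread more widely. *Col2a1*, the main collagen of cartilage, went from 2 to 454 counts. *Col12a1* and *Col14a1*, which bind to fibril surfaces, were 29.4-fold (23.9 to 36.6) and 21.0-fold (18.6 to 23.8) higher, and *Col8a2* was 83.5-fold (58.1 to 125) higher. The basement membrane chains *Col4a1* and *Col4a2* had ratios of 1.71 (1.67 to 1.76) and 1.77 (1.72 to 1.82), inside the 2-fold limit. *Col6a6* was lowest with 193 counts in the left ventricle and 235 in the infarct zone and a ratio of 0.789 (0.649 to 0.959).

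The enzymes that modify and cross-link collagen were less uniform. Of 18 tested, 12 were higher and none lower (median 2.84). *Lox*, lysyl oxidase, was 15.2-fold (13.5 to 17.1) higher, and *Loxl1* 7.30-fold (6.83 to 7.81). *Adamts2*, which cleaves the amino-terminal propeptide of procollagen, was 10.7-fold (9.83 to 11.7) higher. The prolyl 4-hydroxylase subunits did not move together: *P4ha3* went from 10 to 513 counts, while *P4ha2* had 1418 counts in the left ventricle and 1409 in the infarct zone and a ratio of 0.644 (0.598 to 0.693). *Serpinh1*, the collagen chaperone, had a ratio of 1.16 (1.12 to 1.21).

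All 11 tested small leucine-rich proteoglycans, which coat and space collagen fibrils, were at least 2-fold higher (median 9.0). *Fmod*, fibromodulin, showed the largest ratio of them with 202 counts in the left ventricle, 914 in the remote, 2369 in the border and 14889 in the infarct zone, or 47.7-fold (41.6 to 55.1). *Bgn* and *Dcn*, biglycan and decorin, were among the 10 largest gains in CPM of all genes, with ratios of 12.5 (12.1 to 12.9) and 4.25 (4.17 to 4.34). *Lum*, lumican, had a ratio of 9.01 (8.53 to 9.53).

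The matricellular and elastic fibre genes had a median of 10.9, with 27 of 28 higher. *Comp*, cartilage oligomeric matrix protein, a collagen-binding protein of cartilage and tendon (chromosome 8, 70373558 to 70382066, plus strand, GRCm38), had 323 counts in the left ventricle, 1937 in the remote, 6527 in the border and 53811 in the infarct zone. It was 108-fold (96.7 to 121) higher and was among the 10 genes that gained most CPM. *Sfrp2*, a secreted Wnt pathway modulator (chromosome 3, 83766321 to 83774316, plus strand), had 111 counts in the left ventricle, 821 in the remote, 2780 in the border and 21991 in the infarct zone and was 128-fold (107 to 156) higher. Both genes were higher in each zone, from remote through border to infarct, and in the TKO pair their counts in left ventricle and infarct zone were 293 and 30128 for *Comp* and 105 and 12823 for *Sfrp2*.

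*Postn*, periostin, the textbook product of activated cardiac fibroblasts, was 16.5-fold (15.6 to 17.4) higher, and *Sparc* and *Ccn2* were 6.25-fold (6.11 to 6.38) and 9.58-fold (9.21 to 9.96) higher. *Fn1*, fibronectin, was the exception among these genes, with 1819 counts in the left ventricle, 381 in the remote, 504 in the border and 2836 in the infarct zone. Its ratio was 1.01 (0.952 to 1.07), and its border and remote zones lay below both.

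Genes of cartilage, tendon and bone had a median ratio of 15.5, the second highest of the 46 lists after skeletal muscle, with 17 of 20 tested higher and none lower. The list shares *Comp*, *Cilp*, *Cilp2*, *Spp1*, *Thbs4*, *Fmod*, *Chad* and its collagens with the matrix lists. Of the 3 matrifibrocyte markers, *Cilp2* went from 20 to 1826 counts and was 59.1-fold (38.2 to 97.1) higher, *Chad* was 11.8-fold (9.22 to 15.3) higher, and *Comp* is given above. *Acan*, aggrecan, went from 3 to 310 counts, and *Sox9*, the chondrogenic transcription factor, was 13.6-fold (10.1 to 18.6) higher. *Mgp*, an inhibitor of calcification, was 9.32-fold (9.01 to 9.63) higher. Against these, *Alpl*, the alkaline phosphatase of mineralising bone, had 794 counts in the left ventricle and 692 in the infarct zone and a ratio of 0.565 (0.509 to 0.626). *Col10a1*, a marker of hypertrophic cartilage, had 0 and 10 counts and was too low to be tested.

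**Figure D3:**
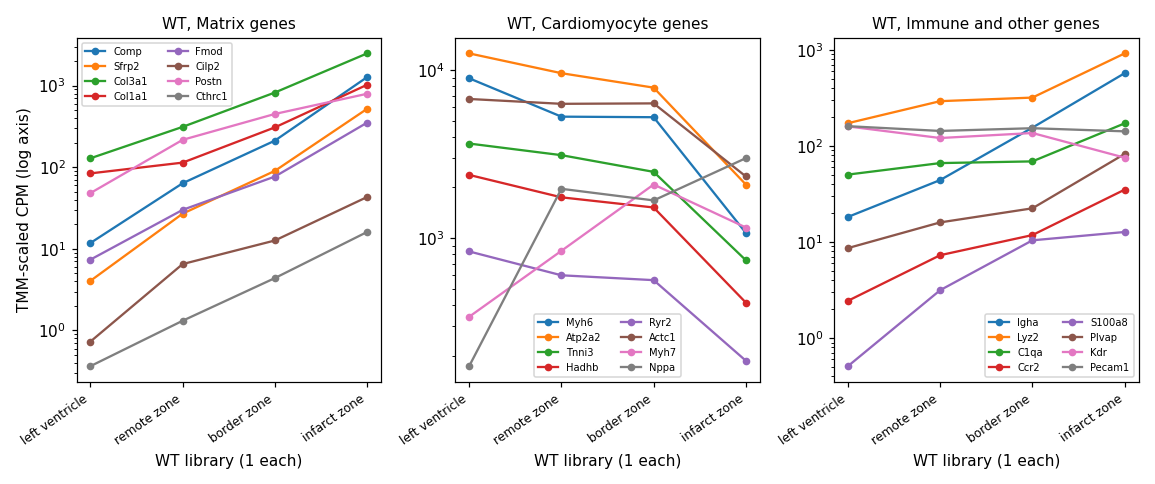
TMM-scaled CPM (log axis) in the 4 WT libraries, ordered left ventricle, remote, border and infarct zone, for 8 matrix genes, 8 cardiomyocyte genes and 8 immune or vessel genes, with 1 point per library joined by lines. Each matrix gene plotted is higher in every zone than in the one before it, *Myh7* is highest in the border zone, *Nppa* is high in all 3 zones of the infarcted heart, and *Pecam1* stays nearly level.

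Proteases and their inhibitors were higher in 16 of 21 tested genes (median 5.93). *Mmp2*, a gelatinase, was 9.12-fold (8.63 to 9.64) higher. The tissue inhibitors of metalloproteinases split: *Timp1* went from 48 to 1982 counts, *Timp2* and *Timp3* were 5.94-fold (5.71 to 6.18) and 2.79-fold (2.72 to 2.85) higher, and *Timp4*, the form most typical of heart muscle, had 1752 counts in the left ventricle and 533 in the infarct zone and a ratio of 0.197 (0.179 to 0.217). *Ctsk*, cathepsin K, a collagen-degrading lysosomal protease, was 15.9-fold (13.2 to 19.3) higher.

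Of 25 genes of transforming growth factor β (TGF-β) signalling, 15 were higher and 1 was lower (median 2.69). Among ligands, *Tgfb3* and *Tgfb2* were 9.07-fold (8.12 to 10.2) and 4.73-fold (4.08 to 5.50) higher, while *Tgfb1* had a ratio of 1.66 (1.52 to 1.82). Among the latent TGF-β binding proteins, *Ltbp2* went from 193 to 17006 counts, 57.1-fold (49.5 to 66.1), while *Ltbp1* had a ratio of 1.08 (1.01 to 1.16). *Bmp7* was the gene below the limit, at 54 and 38 counts.

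Extracellular Wnt pathway genes were mixed: 8 of 15 tested were higher and 2 lower. Beside *Sfrp2*, *Sfrp1* was 14.5-fold (13.1 to 16.2) higher and *Dkk3* 27.1-fold (24.0 to 30.6) higher, all secreted modulators. *Sfrp5* had 36 and 4 counts, and *Wif1*, a secreted Wnt inhibitor, had 130 counts in the left ventricle and 70 in the infarct zone. *Axin2*, a target of β-catenin signalling, had a ratio of 1.01 (0.769 to 1.32).

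Markers of fibroblasts in general had a median ratio of 4.60, with 12 of 13 higher, and all 12 markers of activated fibroblasts were higher (median 8.93). *Pdgfra*, a surface receptor of fibroblasts, was 2.86-fold (2.66 to 3.08) higher, and *Tcf21*, a fibroblast transcription factor, 5.66-fold (4.90 to 6.57). *Cthrc1*, a marker of activated fibroblasts, went from 10 to 681 counts, and *Fap*, fibroblast activation protein, had 99 counts in the left ventricle and 513 in the infarct zone, or 3.36-fold (2.70 to 4.21). *Acta2* and *Tagln*, the contractile genes of myofibroblasts and of smooth muscle, were 3.64-fold (3.48 to 3.81) and 4.70-fold (4.42 to 4.99) higher. Their border zone ratios were 1.01 and 1.04, near 1, where that of *Postn* was 9.33. *Dpep1* had a ratio of 0.946 (0.888 to 1.01).

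Cardiomyocyte transcripts were lower. Of the 24 sarcomere genes, 21 were at least 2-fold lower, 1 was higher and 2 lay between (median 0.292). *Myh6*, the adult α-myosin heavy chain (chromosome 14, 54941921 to 54966927, minus strand, GRCm38), had 244473 counts in the left ventricle, 160486 in the remote, 161279 in the border and 45355 in the infarct zone, a ratio of 0.120 (0.119 to 0.121) and the lowest of the list. *Myl2*, *Myl3* and *Tnni3*, the ventricular light chains and cardiac troponin I, had ratios of 0.241 (0.239 to 0.243), 0.219 (0.217 to 0.221) and 0.202 (0.20 to 0.205). *Actc1*, cardiac actin, was less far down at 0.346 (0.343 to 0.349). In the TKO pair *Myh6* had 153941 and 130620 counts, a ratio of 0.615, and the median of the sarcomere genes was 0.517.

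*Myh7*, the β-myosin heavy chain of the fetal and stressed ventricle, was the 1 sarcomere gene that was higher. It had 9316 counts in the left ventricle, 25532 in the remote, 64127 in the border and 48863 in the infarct zone, so the border zone was above the infarct zone, and the ratio was 3.40-fold (3.32 to 3.47).

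Calcium handling and electrical genes followed the sarcomere, with 18 of 19 lower (median 0.404). *Atp2a2*, the sarcoplasmic reticulum calcium pump, was among the 10 largest losses in CPM with a ratio of 0.166 (0.165 to 0.167). *Ryr2* and *Pln*, the release channel and the pump's inhibitor phospholamban, had ratios of 0.224 (0.218 to 0.229) and 0.254 (0.252 to 0.257). *Gja1*, connexin 43, which fibroblasts make as well, was the gene inside the limit at 0.931 (0.894 to 0.970).

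Of 18 cardiac transcription factors and coactivators, 9 were lower and 1 higher. The metabolic regulators *Ppara* and *Esrra* had ratios of 0.246 (0.214 to 0.283) and 0.329 (0.313 to 0.346), *Mef2a* one of 0.80 (0.768 to 0.833), and *Tbx20*, a T-box factor, was higher with 1383 counts in the left ventricle and 5282 in the infarct zone, or 2.47-fold (2.33 to 2.63).

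Most genes of oxidative metabolism were lower. Each of the 21 genes of fatty acid oxidation that were tested lay at least 2-fold lower, from 0.151 (0.147 to 0.155) for *Acaa2* to 0.246 (0.237 to 0.255) for *Echs1* (median 0.193). Of 18 genes of the tricarboxylic acid (TCA) cycle, 17 were lower (median 0.242), among them *Idh2* at 0.216 (0.213 to 0.220) and *Ogdh* at 0.208 (0.204 to 0.211). *Hadhb*, of the mitochondrial trifunctional protein, had 65068 counts in the left ventricle, 53139 in the remote, 46819 in the border and 17456 in the infarct zone. The medians of both lists lay under that of the sarcomere genes.

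All 13 genes of mitochondrial DNA were lower, between 0.270 (0.269 to 0.271) for *ND2* and 0.372 (0.371 to 0.374) for *COX2*, and 9 of them were among the 10 largest losses in CPM. Nuclear genes of complex I, taken by their *Nduf* names, had a median of 0.289 with 35 of 36 lower. Those of complexes II to V had a median of 0.297 with 40 of 45 lower. *Ndufa4l2*, which is in the complex I list by its name and which hypoxia is known to induce, was the member not lower, at 1.62 (1.44 to 1.82). Mitochondrial ribosomal protein genes were less low, with a median of 0.441 and 55 of 76 lower, while cytosolic ribosomal protein genes had a median of 1.14 and 76 of 78 inside the limit. *Rpl3l*, the striated muscle form of *Rpl3*, had 7634 counts in the left ventricle and 1376 in the infarct zone, whereas *Rpl3* had 4591 counts in the left ventricle and 17370 in the infarct zone. The ratios were 0.117 (0.110 to 0.124) and 2.45 (2.37 to 2.53).

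Of 21 glycolysis genes, 11 were lower and 2 higher (median 0.474). The 3 with most counts, *Gapdh*, *Aldoa* and *Pkm*, had ratios of 0.372 (0.367 to 0.376), 0.346 (0.341 to 0.350) and 0.439 (0.431 to 0.446), and *Ldhb*, the heart form of lactate dehydrogenase, was lowest at 0.184 (0.180 to 0.188). The 2 genes that were higher were *Slc16a3*, the lactate exporter MCT4, with 64 counts in the left ventricle and 747 in the infarct zone, and *Hk3*, a hexokinase of myeloid cells, with 58 counts in the left ventricle and 303 in the infarct zone.

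Wall stress and fetal genes were higher in 8 of 12, with a median of 3.30. *Nppa*, atrial natriuretic peptide (chromosome 4, 148000722 to 148002079, plus strand, GRCm38), had 4736 counts in the left ventricle, 59713 in the remote, 51584 in the border and 126364 in the infarct zone, the largest gain in CPM of all genes, and was 17.3-fold (16.8 to 17.8) higher. *Nppb*, the B-type peptide, had 2834 counts in the left ventricle, 10289 in the remote, 15855 in the border and 14029 in the infarct zone, but 10300 counts in the TKO left ventricle, over which the ratio of the WT infarct zone was 0.834. *Ankrd1* was 3.78-fold (3.49 to 4.08) higher. The list includes atrial genes, among them *Myl7*, the atrial regulatory light chain. *Myl7* had 152 counts in the left ventricle, 5227 in the remote, 491 in the border and 682 in the infarct zone. *Bmp10*, made by atrial muscle, is not in the list. Its counts were 6 in the left ventricle, 2134 in the remote, 26 in the border and 34 in the infarct zone. Over the remote zone the median of the wall stress list was 0.929. *Tnni1*, slow skeletal troponin I, was 20.6-fold (9.85 to 51.9) higher, with a wide interval. Skeletal muscle transcripts were present in this infarct zone library, as given above, and their part in the *Tnni1* ratio was not tested.

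**Figure D4:**
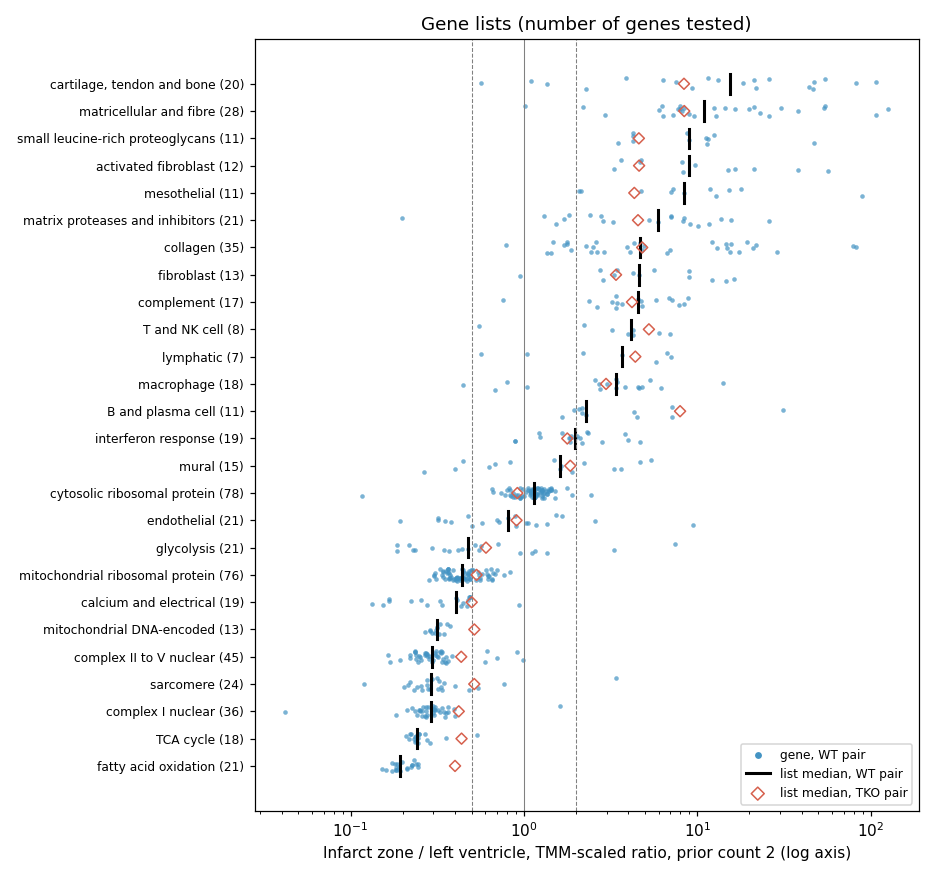
Ratio of infarct zone to left ventricle (log axis, prior count 2) for the members of 26 gene lists, with the number of genes tested beside each name; points are genes of the WT pair, bars the list medians of the WT pair, and open diamonds the medians of the TKO pair. Medians run from 0.193 for fatty acid oxidation to 15.5 for cartilage, tendon and bone.

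Macrophage genes were higher in 14 of 18 (median 3.40). *Lyz2*, lysozyme, had 4725 counts in the left ventricle, 8892 in the remote, 9808 in the border and 38814 in the infarct zone, or 5.32-fold (5.16 to 5.49), and the complement genes *C1qa* and *C1qb* were 3.41-fold (3.22 to 3.62) and 3.39-fold (3.20 to 3.59) higher. *Ccr2*, the chemokine receptor of monocyte-derived cells, was highest at 14.3-fold (11.2 to 18.6). Markers of resident macrophages differed: *Lyve1* had a ratio of 1.04 (0.957 to 1.13), and *Cd163* had 721 counts in the left ventricle and 493 in the infarct zone and a ratio of 0.443 (0.394 to 0.497), but 1.04 over the TKO left ventricle. *Chil3*, a chitinase-like protein that lung macrophages make in quantity, had 14 counts in the left ventricle, 651 in the remote, 153 in the border and 3928 in the infarct zone and followed the lung genes across the WT zones.

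Genes of lipid-associated macrophages were higher in 8 of 15. *Trem2*, their defining receptor, was 7.06-fold (5.31 to 9.57) higher, *Gpnmb* 5.47-fold (4.85 to 6.18) and *Lgals3* 14.2-fold (12.2 to 16.7). *Apoe* was among the 10 largest gains in CPM at 3.84-fold (3.77 to 3.92). *Lpl*, which cardiomyocytes also make, was lower at 0.232 (0.229 to 0.235). *Atp6v0d2* went from 3 to 300 counts.

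Complement genes were higher in 16 of 17 tested (median 4.53), with *C3*, the central component, 6.86-fold (6.65 to 7.08) higher. *Clu*, clusterin, had a ratio of 0.758 (0.743 to 0.773). Interferon response genes had a median of 1.97, with 9 of 19 higher, up to 4.72-fold (4.13 to 5.41) for *Ifit3*. Antigen presentation genes were higher in 8 of 14, with the class II invariant chain *Cd74* at 3.75-fold (3.62 to 3.89) and the class I partner *B2m* at 1.76 (1.72 to 1.81).

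*Ptprc*, the pan-leukocyte CD45, was 6.04-fold (5.34 to 6.85) higher, and *Cd3e*, of the T cell receptor complex, had 4 and 45 counts. T and NK cell genes were higher in 7 of 8 tested, and summed to 21.2 CPM in the left ventricle and 92.4 in the infarct zone, where B and plasma cell genes summed to 221 and 1448. Among B and plasma cell genes, *Igha*, the immunoglobulin A heavy chain, had 500 counts in the left ventricle, 1343 in the remote, 4774 in the border and 24165 in the infarct zone, or 31.3-fold (28.7 to 34.3). *Ighm*, the immunoglobulin M heavy chain, had 2706 counts in the left ventricle, 518 in the remote, 510 in the border and 8657 in the infarct zone, and so was higher in the WT left ventricle than in the remote and border zones. Its ratio was 2.07 (1.98 to 2.16) in WT mice and 9.96 in the TKO pair.

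Of neutrophil genes, *S100a8* and *S100a9* went from 14 to 538 and from 21 to 681 counts, and the mast cell proteases *Cma1* and *Mcpt4* had ratios of 0.936 (0.60 to 1.47) and 0.980 (0.636 to 1.53). Chemokines did not move as a group: 12 of 27 tested were higher and 4 lower. *Cxcl5* went from 8 to 620 counts, but had 262 in the TKO left ventricle. *Ccl3*, a macrophage inflammatory protein, had 409 counts in the left ventricle, 17 in the remote, 57 in the border and 152 in the infarct zone, and *Ccl21a*, of lymphatic endothelium, was 7.07-fold (6.33 to 7.92) higher.

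Endothelial genes had a median of 0.812, which turned to 1.44 under scaling by total counts, with 2 of 21 tested higher and 7 lower. In the TKO pair 2 were higher and 0 lower at 2-fold. *Pecam1* and *Cdh5*, the pan-endothelial junction proteins, had ratios of 0.883 (0.850 to 0.919) and 0.717 (0.688 to 0.747). The lower genes included *Car4*, lowest at 0.192 (0.166 to 0.222), *Aqp1* at 0.319 (0.309 to 0.328) and *Kdr*, a receptor of vascular endothelial growth factor, at 0.473 (0.452 to 0.495). *Vwf*, von Willebrand factor of larger vessels, was 2.58-fold (2.43 to 2.74) higher and *Plvap*, of fenestrated and venous endothelium, 9.55-fold (8.37 to 10.9) higher. Lung vessels carry several of these genes too, and the part of lung RNA was not tested.

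Of the mural genes, *Myh11*, of smooth muscle, was 3.32-fold (3.08 to 3.59) higher, and the pericyte genes *Rgs5* and *Abcc9* had ratios of 0.628 (0.613 to 0.644) and 0.265 (0.255 to 0.276). *Abcc9* is also a channel subunit of cardiomyocytes. The lymphatic list had a median of 3.69, but *Prox1*, the lymphatic regulator that cardiomyocytes also express, had a ratio of 0.561 (0.515 to 0.611). All 11 tested mesothelial genes, of the surface layer of heart and lung, were higher (median 8.42), with *Upk3b* at 7.31-fold (6.06 to 8.88). *Msln* was listed at 0 in the left ventricle and at 213 counts in the infarct zone, and at 0 in the TKO infarct zone. Of nerve genes, *S100b* and *Scn7a* were 4.77-fold (3.25 to 7.24) and 3.66-fold (3.35 to 3.99) higher, while *Sox10*, of Schwann cells, had a ratio of 0.564 (0.373 to 0.849).

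Hemoglobin genes were higher by a like amount, from 2.20-fold (2.16 to 2.25) for *Hba-a1* to 2.35-fold (2.31 to 2.38) for *Hbb-bs*. Reads of *Hba-a1* and *Hba-a2*, of the *Ccl21* copies and of immunoglobulin segments can be split between near-identical genes, so single values there are uncertain. Proliferation genes were higher in 12 of 20 (median 2.18), with *Mki67* at 2.66-fold (2.25 to 3.15), while *Cenpf* was lower at 0.302 (0.264 to 0.346). Immediate early genes were higher in 7 of 17 tested, with *Fos* at 6.95-fold (5.23 to 9.42) and *Jun* at 1.31 (1.23 to 1.39).

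Lysosomal genes were higher in 8 of 23 tested, and the abundant *Psap* and *Ctsd* had ratios of 0.630 (0.621 to 0.639) and 0.779 (0.767 to 0.791). Among hypoxia and angiogenic factors, whose median turned from 0.815 to 1.44 under scaling by total counts, *Vegfd* was 8.20-fold (6.59 to 10.3) higher and *Vegfb* was lower at 0.274 (0.262 to 0.287), with *Vegfa* at 0.540 (0.521 to 0.560). Among adrenergic and angiotensin genes, *Ace*, the angiotensin-converting enzyme, was 3.37-fold (3.20 to 3.56) higher and the α1A-adrenergic receptor *Adra1a* was lower at 0.204 (0.173 to 0.241). Of the p53 and senescence list, *Igfbp3* was 3.58-fold (3.32 to 3.87) higher, and *Ccng1* was at 0.351 (0.343 to 0.360).

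Some of the lowest ratios belong to genes in which the WT left ventricle stood apart from the other 7 libraries. *Pdk4*, the fasting-induced inhibitor of pyruvate dehydrogenase, had 35967 counts in the left ventricle, 4921 in the remote, 4701 in the border and 2568 in the infarct zone, and 10880 and 2608 in the TKO left ventricle and infarct zone. Its ratio was 0.0463 (0.0444 to 0.0481) over the WT left ventricle and 0.144 over the TKO left ventricle. *Ucp3*, a mitochondrial uncoupling protein of muscle, had 4691 counts in the left ventricle, 870 in the remote, 730 in the border and 263 in the infarct zone, and *Pck1*, the gluconeogenic enzyme of liver and fat, had 847 counts in the left ventricle, 21 in the remote, 69 in the border and 92 in the infarct zone. For *Pck1* the ratio was 0.0704 (0.0561 to 0.0873), but 11.3 over the TKO left ventricle, which had 5 counts.

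*Epha4*, an ephrin receptor, was low in both pairs, with 614 counts in the left ventricle, 667 in the remote, 528 in the border and 29 in the infarct zone in WT mice and 919 and 38 in the TKO pair. *Gpr22*, *Tacc2*, *Scn4b*, *Mdh1*, *Gm16409*, *P2ry1* and *Plin5* were also among the 15 lowest, between 0.0789 and 0.118. The 8 counts of *Scn4b* share a divisor of 3, as if 1 estimate were listed several times over, and 69 genes with over 100 counts in all show such a divisor.

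Of the 15 highest ratios, *Fat1*, *Itsn2*, *Akap13*, *Ighv10-3*, *Tsc2*, *Fdft1* and *Pnpla6* were listed at 0 in the WT left ventricle, with between 256 and 843 counts in the infarct zone. *Fdft1*, of cholesterol synthesis, and *Tsc2*, of growth control, are used by most cells, and an exact 0 can be a failed estimate, so no fold is given for these genes. *Birc2* and *Aff3* had 1 count each. In all, 102 tested genes were listed at 0 in at least 1 library with at least 100 counts in another.

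For the 2446 genes that were higher in the infarct zone, the median ratio to the same left ventricle library was 3.36, where the border zone had 1.56 and the remote zone 1.32. For the 1927 lower genes these were 0.362, 0.778 and 0.864. The genes were chosen by the infarct zone ratio and the 3 comparisons share the WT left ventricle, so medians nearer 1 in the other zones are set in part by the choice, and no order of zones is read from them. With the remote zone as reference, 2080 genes were higher in the infarct zone and 1657 lower, of which 1787 and 1453 were also called over the left ventricle.

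The TKO infarct zone and TKO left ventricle share no library with the WT pair. There 2112 genes (16.2%) were higher and 991 (7.62%) lower. Of the genes called higher, 1693 were called in both pairs, which is 69.2% of the WT calls and 80.2% of the TKO calls. Of the genes called lower, 810 were called in both, 42.0% of the WT calls and 81.7% of the TKO calls. Among WT calls, 96.7% of the higher and 96.0% of the lower genes lay on the same side of 1 in the TKO pair. At 4-fold, 578 genes were higher in both pairs, 62.0% of the WT and 73.6% of the TKO calls. Only 10 genes were at least 4-fold lower in both, 3.05% of 328 in WT mice and 11.6% of 86 in TKO mice. The 328 genes had a median ratio of 0.435 in the TKO pair. They were chosen by their WT ratio, which in part sets a TKO median nearer 1. Over the 12999 genes Pearson's r of the log2 ratios was 0.781, as a description across genes, which are not independent replicates and share the TMM scaling.

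Lists whose medians lay far apart in the pairs included fast skeletal muscle (37.9 in WT mice and 1.20 in TKO mice), adipocyte (0.242 and 6.06), B and plasma cell (2.28 and 7.96) and wall stress (3.30 and 0.966). Collagen was at 4.69 and 4.81, and the small leucine-rich proteoglycans at 9.0 and 4.60. With 1 library per group, the difference between genotypes was not tested.

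**Figure D5:**
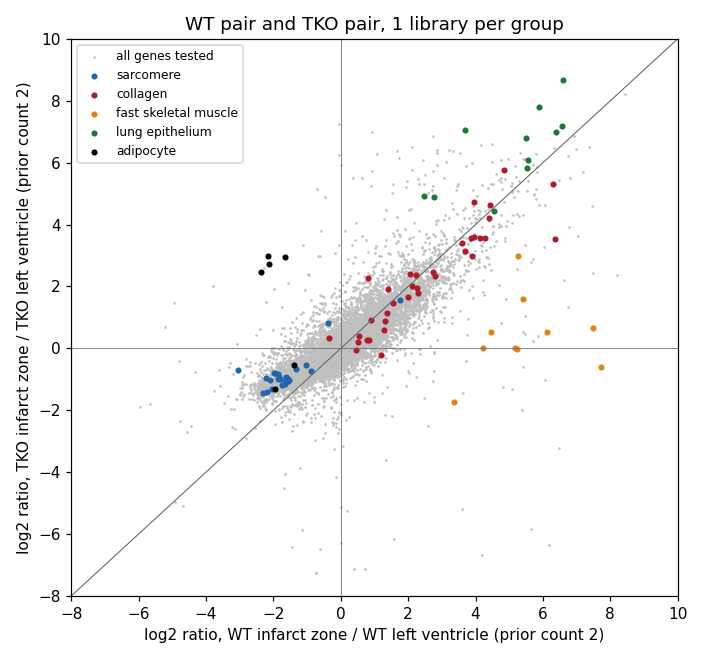
log2 ratio of infarct zone to left ventricle (prior count 2) in the TKO pair against that in the WT pair for 12999 genes, 1 library per group; coloured points are 5 gene lists and the diagonal marks equal ratios. Collagens lie near the diagonal, and sarcomere genes mostly lie left of it. Fast skeletal muscle genes are high in the WT pair and mostly near 0 in the TKO pair. Of the 6 adipocyte genes, 4 lie on opposite sides of 0 in the WT and TKO pairs.

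Promoters were read for motifs because so many genes moved together. RefSeq windows of 300 bases around the gene start (GRCm38.p6) were found for 10103 of the 12999 genes, for 659 of the 932 genes at least 4-fold higher and for 250 of the 328 at least 4-fold lower, and both strands were searched. Shares are of genes with a window, and a gene counted once if any of its windows held the motif. The AP-1 motif TGACTCA, the target of Fos and Jun, was in 6.98% of the higher, 6.80% of the lower and 4.59% of all such genes. The element of estrogen-related receptors (ERR), AAGGTCA, was in 4.55%, 7.60% and 3.81%, where the share of the lower genes was 19 of 250. Read on the gene's own strand alone, the element was in 2.88%, 1.60% and 1.99%, so the lower genes no longer had the larger share. The TEAD motif CATTCCA was in 3.64%, 5.60% and 3.65%, and the CArG box of serum response factor in 1.67%, 1.20% and 1.62%.

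A pair of motifs was added after the files had been read. The ETS motif CCGGAAG, common in promoters of widely expressed genes, was in 5.31% of the higher, 9.60% of the lower and 19.3% of all genes with a window. The E-box CAGCTG was in 21.7%, 23.2% and 18.2%. A match is a description of the letters and not a bound site.

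The stretches with a motif in the most abundant genes at least 4-fold changed are shown with the motif in capitals, 5′ to 3′ on the gene's strand, to place the searched letters in real promoters. *Emp1* (chr6:135362775-135362803, plus strand, 138 bases before the start) and *Col6a1* (chr10:76726117-76726145, minus strand, 83 bases before) hold AP-1, and *Perm1* (chr4:156215714-156215742, plus strand, 195 bases before) and *Slc25a34* (chr4:141623936-141623964, minus strand, 112 bases before) hold the ERR element, all in antisense orientation but *Col6a1*.
Emp1: gtctgtgtgtcTGAGTCAgagggagctac
Col6a1: tgctgatgctgTGACTCActcagctttga
Perm1: ggaatccggtgTGACCTTagctaatgcca
Slc25a34: ccagtcacaagTGACCTTtcctccagatc

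*Emp1*, an epithelial membrane protein, and *Col6a1*, a chain of type VI collagen, were 6.65-fold (6.31 to 7.02) and 4.35-fold (4.15 to 4.55) higher. *Perm1*, a muscle regulator of mitochondrial genes, and *Slc25a34*, a mitochondrial carrier, had ratios of 0.229 (0.220 to 0.239) and 0.159 (0.151 to 0.167).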

How the data were processed

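RNA was measured by bulk RNA-seq in 8 heart libraries, of which the WT infarct zone and WT left ventricle are compared. Per the labels and the study's methods, the authors trimmed reads with Trim Galore 0.6.5, ran kallisto 0.46 on mm10 transcripts, collapsed the result to genes through tximport and worked in edgeR 3.34.1. The deposited values are estimated counts, listed as whole numbers and not normalized, and were used as they stand.

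TMM factors were computed with edgeR 4.0.16 in R 4.3.3 over the genes whose mean CPM was 1 or more. Ratios and exact Clopper-Pearson intervals were computed in Python 3.11.15 with scipy 1.17.1, numpy 2.4.6 and pandas 2.3.3, and figures were drawn with matplotlib 3.10.9. Calls use a prior count of 2 and 2-fold, and up to 3 counts stand for the floor. Calls and list medians use that prior count, while the ratios of single genes do not. The scripts were tested on simulated data. Genes were placed on GRCm38 with GENCODE vM21.

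The comparison, the 46 gene lists and the tests were chosen with earlier results of these data known, and 4 more lists and 2 more motifs after values were seen. Genes were named by a rule: the 15 highest and 15 lowest ratios among genes with 200 counts in the higher library, the 10 largest gains and losses in CPM, from each list the 3 members with most counts, the highest and lowest with 50 counts over both libraries and those called against its median, all cell type markers, *Tigar*, and genes called in opposite directions in the WT and TKO pairs. *Col4a1*, *Col4a2*, *Col12a1*, *Col14a1*, *Col8a2*, *Lox*, *Tgfb1*, *Tgfb2*, *Tgfb3*, *Ltbp1*, *Axin2*, *Ankrd1*, *Tnni1*, *Trem2*, *Gpnmb*, *Lgals3* and the 4 genes of the promoter stretches were added after their values were seen. Some genes that the rule covers are left out of the text.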

Additional observations from a re-analysis of the deposited data

Results flagged for a closer look

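*Fam107a*, *Car3*, *Depp1*, *Prkaa1*, *Myl4* and *Zbtb16* were at least 2-fold changed in opposite directions in the WT pair and in the TKO pair, with at least 200 counts in the higher library of each pair. With 1 library per group the difference was not tested.

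After the prior count, the ratio of the infarct zone to the left ventricle was 0.482 in WT mice and 3.71 in TKO mice for *Fam107a*, a stress-responsive gene. For *Depp1* it was 0.296 and 2.51, and for *Zbtb16*, a glucocorticoid-induced zinc finger factor, 0.339 and 4.28. In all 3 genes the left ventricle libraries differed more than the infarct zones: *Zbtb16* had 1759 counts in the WT and 283 in the TKO left ventricle, with 920 and 1680 in the infarct zones. Over the TKO left ventricle the WT infarct zone had ratios of 2.26, 1.47 and 1.99.

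*Car3*, an adipocyte and muscle carbonic anhydrase, had ratios of 0.316 and 7.74 and moved with the adipocyte genes, at 1702 counts in the WT and 31 in the TKO left ventricle. *Myl4*, the atrial essential light chain, had ratios of 3.85 and 0.432 and was highest in the WT remote zone at 8492 counts. *Prkaa1* had ratios of 0.439 and 2.16, but its 8 counts share a divisor of 4, as if 1 estimate were listed several times over.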

How the results depend on the processing

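Settings are changed one at a time. The main counts were 2446 genes higher and 1927 lower. Scaling by total counts gave 5578 and 499 and left 3 of the 11 lists with a median at least 2-fold lower. It multiplies every ratio of the WT pair by 1.78. Without a filter on low genes, 3969 genes were higher. DESeq2 size factors, TMM over the 2 libraries, TMM with no filter, mitochondrial genes left out, a minimum of 100 counts, prior counts of 0.5 and 10, the whole counting interval beyond 2-fold (1836 and 1466), and the TKO left ventricle as reference (2677 and 2161) kept both counts within 1.5 times. So did settings chosen after seeing the data: the remote zone as reference, a call against each of the left ventricle libraries (2103 and 1682), and no genes with zeros or shared divisors (2368 and 1912).

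Among the named genes and the lists at least 2-fold from 1, no scaling tried moved one to the other side of 1. Named genes nearer 1 did cross, such as *Gja1* (0.931 to 1.65 under total counts). Of lists nearer 1, total counts turned endothelial to 1.44 and hypoxia and angiogenic factors to 1.44, and TMM with no filter turned circadian clock to 0.993. Another reference moved called genes and lists across 1. Over the TKO left ventricle the ratio after the prior count was 8.87 for *Pck1*, 0.834 for *Nppb*, 1.04 for *Cd163*, 15.6 for *Car3*, 13.2 for *Cfd*, 9.08 for *Adipoq*, 10.95 for *Cidec*, 12.45 for *Tigar*, which those mice lack, 2.26 for *Fam107a*, 1.47 for *Depp1*, 1.22 for *Prkaa1* and 1.99 for *Zbtb16*, and the list medians were 9.97 for adipocyte and 1.99 for fasting and glucocorticoid genes. Over the WT remote zone it was 2.99 for *Pck1*, 0.981 for *Nppb*, 5.95 for *Ccl3*, 5.20 for *Ccl4*, 2.97 for *Cxcl2*, 4.16 for *Car3*, 4.59 for *Cfd*, 2.70 for *Adipoq*, 2.57 for *Cidec*, 1.43 for *Prkaa1*, 0.124 for *Myl4*, 0.0941 for *Myl7*, 0.0883 for *Sln* and 0.0122 for *Bmp10*, and the medians were 0.929 for wall stress, 2.63 for adipocyte and 0.320 for atrial genes. The cause was not tested.

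With mitochondrial genes left out of the total, the shares in left ventricle and infarct zone were 9.38% and 3.74% for sarcomere, 0.181% and 1.69% for collagen, 2.31% and 3.56% for cytosolic ribosomal protein, and 0.144% and 1.92% for matricellular genes. On the gene's own strand alone the promoter shares of higher, lower and all genes were 2.73%, 2.40% and 2.25% for AP-1. They were 2.88%, 1.60% and 1.99% for the ERR element, and 1.67%, 2.0% and 1.87% for TEAD. No paired analysis was possible because each group has 1 library.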

Other observations

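Circadian clock genes, a list chosen after the values were seen, had a median ratio of 1.04 in the WT pair (0.993 under TMM with no filter), with 13 of 15 between the 2-fold limits, and 1.58 in the TKO pair. *Dbp*, a clock output gene, had 3157 counts in the left ventricle, 4621 in the remote, 4042 in the border and 5894 in the infarct zone, against 1601 and 4951 in the TKO left ventricle and infarct zone. Genes of fasting and glucocorticoid action had medians of 0.339 in the WT pair and 2.13 in the TKO pair. This list was also chosen after the values were seen. It holds *Pdk4*, *Ucp3*, *Pck1*, *Depp1*, *Zbtb16* and *Fam107a*, given above, so its medians are no separate result. Of its 13 genes, 8 were lower and 0 higher in the WT pair, and 3 lower and 7 higher in the TKO pair. *Tsc22d3*, a glucocorticoid target, had the highest WT ratio of the list at 1.60. Its WT counts were 3295 in the left ventricle, 2975 in the remote, 3647 in the border and 8151 in the infarct zone. In the TKO left ventricle and infarct zone they were 1272 and 8868.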
